A study of Homo sapiens with 4 samples.

Results

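Cyclins, cell cycle kinases, centromere proteins and kinesins were examined in a map of N6-methyladenosine (m6A) in the mRNA of CaSki cells, an established cervical carcinoma line. Their 69 genes were chosen by symbol alone: cyclins A, B, D, E, F and G, numbered CDKs, CDC proteins of the cycle, PLK, AURK, BUB, CHEK, TTK and WEE1 kinases, CENP proteins, all KIF kinesins, MKI67 and TOP2A, where the symbol had at least 1 peak in either deposited list. They were 69 of 8220 genes with a peak. The rule also takes kinesins not known mainly for mitosis, many of them transport motors, here kept apart from the mitotic ones as other kinesins, and CENPBD1 and CENPJ, which RefSeq now lists as CENPBD1P and CPAP. In RefSeq, 123 protein-coding symbols match the rule. Among the 56 of them that had no row in the lists analysed here were CCNB1, CDK4, CDC6, CDC20, AURKB, CHEK1, TTK and CENPE.

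The treated cells had been held at 42 °C for 60 min, and the control cells were grown at 37 °C. Each of the 2 conditions gave 1 library immunoprecipitated with an m6A kit and 1 input library, and the authors deposited 1 peak list per condition. The study asked what heat does to m6A. With 1 immunoprecipitated library per condition no difference has a replicate check, and no p-value is given.

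The cell cycle turns on cyclin-dependent kinases (CDKs), which need a cyclin to be active. WEE1 holds them back by phosphorylation, CDC25 phosphatases remove that phosphate, and the anaphase-promoting complex (APC/C) ends mitosis by marking cyclin B and securin for destruction. PLK, AURK and BUB kinases and the centromere proteins tie chromosomes to the spindle, on which mitotic kinesins act as motors. m6A is written into mRNA by the METTL3-METTL14 complex, often in long internal exons and around stop codons, and is known to affect how long an mRNA lasts and how well it is translated.

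The heat list held 15472 peaks and the control list 14367, of which 137 and 115 belonged to the cell cycle genes. A peak carries a fold enrichment over the background estimated by the caller and a significance score, minus 10 times the log10 of its p-value. The score starts at 50 and has a ceiling of 3100 that a few peaks pass. Both are the authors' own values for single peaks, and they describe peaks within a list, since the scaling between libraries is not given. By fold the typical cell cycle peak was close to the typical peak of its list. The median fold was 31.9 in heat, where all peaks had 31.6, and 40.1 in control, where all peaks had 43.3. By score the typical cell cycle peak stood somewhat lower. The median score was 181 in heat, where all peaks had 203, and 224 in control, where all peaks had 267. The caller's false discovery rate was 100% for 76 of the 137 heat peaks (55.5%, where 53.2% of all heat peaks had it). It was 100% for 59 of the 115 control peaks (51.3%, where 48.5% of all control peaks had it). Peak names run up to number 64647 in heat and 58312 in control, and the lists hold 23.9% and 24.6% of those numbers, so a gene absent from a list may have missed the calling threshold or may be among the peaks left unlisted. Depth per library is unknown from these files. Of the markers of the labelled cell type, 8 of 11 epithelial genes had a peak, against 2 of 7 fibroblast or endothelial genes (COL1A1 and CDH5) and 0 of 6 immune genes.

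Most cell cycle genes carried m6A peaks in both conditions, and those listed in 1 condition were more often heat only. Of the 69 genes, 15 were in the heat list only (21.7%, where 13.2% of all genes with a peak were), 6 in the control list only (8.70%, where 13.5% of all genes were) and 48 in both. Of the 21 members found in 1 list, 71.4% were heat only; the exact 95% interval, for the counting of genes only, runs between 47.8 and 88.7% and includes the 49.4% of all genes found in 1 list. Under each of the 4 other thresholds tried, heat-only members exceeded control-only members by at most 1 gene. The counts of heat-only and control-only members were 10 and 9 with 14367 top peaks from each list, 11 and 11 above a fold of 36.5, 10 and 10 above a score of 228, and 10 and 9 at a listed false discovery rate under 100%. These filters also lowered the heat-only share of all single-list genes, to between 28.8% and 43.1%, and the members' share, 50% to 52.6%, lay above it with intervals that included it.

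**Figure D1:**
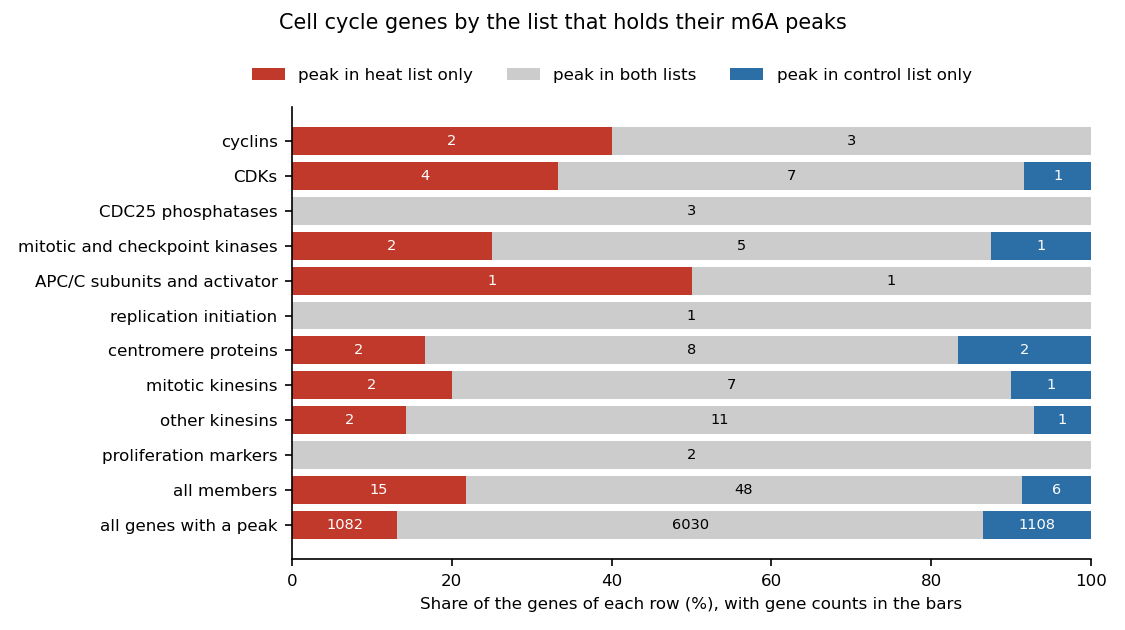
Share of genes (%) with an m6A peak in the heat list only (red), in both lists (grey) and in the control list only (blue), by role and for all 8220 genes with a peak; numbers in the bars are gene counts. Heat-only genes outnumber control-only genes among the CDKs (4 and 1) and the cyclins (2 and 0), and the 2 classes are equal among the centromere proteins (2 and 2).

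Of the 5 cyclins with a peak, CCNA2 and CCNB2 were heat only, and CCND1, CCNE1 and CCNF were in both lists. CCNA2, the cyclin of S phase and mitotic entry, had 1 heat peak of 26.2-fold and score 109 on chromosome 4, positions 122744571 to 122745070 (hg19), and none in control. CCNB2, a mitotic partner of CDK1, had 1 heat peak of 37.0-fold and score 56.5 on chromosome 15, 59397284 to 59397491, and none in control. Both lie in the weaker part of the heat list, whose median score was 203. CCND1, which starts the passage through G1 with CDK4 and CDK6, had 3 regions in each list with the same limits. Its strongest heat region, at chromosome 11, 69455873 to 69456279, had 61.3-fold and score 2518 in heat and 40.5-fold and score 693 in control. Its other regions had the higher fold and score in control, but by rank within its list each stood higher in heat. A region of 247 bases had 23.5-fold and score 331 in heat and 37.3-fold and score 463 in control. It was in the top 37.0% of heat peaks and the top 38.0% of control peaks. A region of 3357 bases, the best-scored in control, had 37.1-fold and score 1048 in heat and 49.1-fold and score 1060 in control. That region was in the top 15.7% of heat peaks and the top 23.5% of control peaks. CCNF, an F-box protein that marks substrates for destruction in G2, also had 3 regions with the same limits in each list, the strongest of 65.2-fold in heat and 203-fold in control. CCNE1, the G1/S cyclin, had 2 heat regions (22.4-fold with score 98.8, and 41.5-fold with score 157) and 1 control region (18.7-fold, score 53.4), none of which overlapped.

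CDK1, the kinase that drives mitosis, was heat only, and CDK2, the kinase of S phase, control only. CDK1 had 2 heat peaks on chromosome 10, 62538251 to 62538426 with 41.4-fold and score 122, and 62544463 to 62544619 with 44.9-fold and score 131. CDK2 had 1 control peak on chromosome 12, 56365305 to 56366431, of 17.0-fold and score 53.2, close to the lowest score listed. The other heat-only CDKs were CDK16, an X-linked kinase of the PCTAIRE group (29.6-fold, score 588), CDK19, a Mediator kinase (38.7-fold, score 87.3), and CDK10, a partner of cyclin M (12.3-fold, score 56.8). Peak numbers in the files show how much room an absence has: for CDK19 the control numbering has no gap between the flanking peaks, for CDK1 the gap is 4 numbers wide and for CDK16 7.

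The 7 CDKs with peaks in both lists were CDK6, CDK8, CDK9, CDK12, CDK13, CDK17 and CDK18. CDK12 and CDK13, which phosphorylate RNA polymerase II during elongation, had 4 peaks in each list, and CDK9, the kinase of P-TEFb, had 2. Of the CDK12 regions, 3 had the same limits in both lists, and the strongest, at chromosome 17, 37617764 to 37619370, reached the ceiling score in both with 75-fold in heat and 76.1-fold in control. The longer CDK9 region, of 1596 bases, had 83.0-fold in heat and 290.2-fold in control, and was among the top 2.23% of control peaks. CDK8, the Mediator kinase related to CDK19, had 1 region with the same limits in both. CDK18 stood apart with 4 heat peaks and 1 control peak: its 3 extra regions had scores of 104 to 132, and the shared one, of 1450 bases, had a score of 472 in heat and 81.3 in control. CDK6, which pairs with D cyclins, had 3 heat peaks and 2 control peaks, and CDK17 had 1 and 2.

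The CDC25 phosphatases, which release CDK1 and CDK2 from WEE1, all had peaks in both lists. CDC25B, which starts mitotic entry, had 3 heat regions and 1 control region on chromosome 20, and none overlapped. The heat regions were 3776864 to 3777378 with 51.6-fold and score 632, 3778269 to 3778396 with 20-fold and score 404, and 3785468 to 3786768 with 25.1-fold and score 214. The only control region, 3779059 to 3779110, was 52 bases long with 13.2-fold and score 59.5. At the first 2 heat regions the control numbering has no gap in which an unlisted peak could stand, and at the control region the heat numbering has none. The other list left no gap at 4 of the members' 47 single-list heat peaks. It left none at 3 of their 27 single-list control peaks, in CDC25B, CENPA and KIF21B. The share of all single-list peaks without a gap is not given here. CDC25A, which acts at G1/S, had a long region in both lists, of 1818 bases, 28.1-fold and score 402 in heat and 1908 bases, 22.1-fold and score 144 in control, and a weak second region in heat. CDC25C, the activator of CDK1 at mitosis, had 1 heat region of 81.0-fold that overlapped a control region of 29.2-fold, and a second control region of 44.2-fold without an overlap in heat.

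WEE1 itself had 1 region in each list at different places on chromosome 11, 9609996 to 9610490 in heat (40.7-fold, score 110) and 9595228 to 9596056 in control (18.7-fold, score 140). Together with CCNE1, CDC25B and CENPA, the histone H3 variant of centromeres, it was 1 of 4 of the 48 genes in both lists of which no heat region overlapped a control region (4.79% of all genes in both lists had none). CENPA had 20.6-fold and score 68.0 in heat, and 23.8-fold and score 50.6 in control, where the heat numbering has no gap. Counted by gene these 4 look shared, and counted by region they do not.

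PLK1, which drives mitotic entry and spindle assembly, was heat only, with a peak of 19.5-fold and score 233 at chromosome 16, 23692235 to 23692379. PLK3, a stress-responsive kinase of the same family, was also heat only, with 24.4-fold and score 54.5. PLK2 and PLK4 were in both lists. PLK4, which licenses the doubling of centrioles, shared a region of 1021 bases, with 126.8-fold in heat and 97.9-fold in control, and had a second control region of 113-fold and score 429 that had no overlap in heat. PLK2, a stress-inducible kinase, shared a region of 792 bases, of 42.2-fold and score 529 in heat and 143-fold and the ceiling score in control. BUB1B, the spindle checkpoint protein BubR1, was control only with 28.5-fold and score 61.3, whereas its partner BUB1 had a weak overlapping region in each list. AURKA, the spindle pole kinase, had the same region of 995 bases in both and a second one in heat (22.1-fold, score 79.2). Of the APC/C subunits, CDC27 was heat only (38.7-fold, score 86.9) and CDC16 had a region with the same limits in both, with scores of 50.1 in heat and 82.8 in control. CDC7, the kinase that fires replication origins, shared a region with scores of 120 in heat and 461 in control and had a weak second region in heat.

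The genes of mitotic entry are known for promoters that hold a CCAAT box and a cell cycle element (CHR), through which the cell cycle restrains them outside G2 and mitosis. Promoters were read because several heat-only members belong to that group; the assay measured RNA and says nothing of promoter activity. The 60 members with a RefSeq promoter entry (GRCh38.p14) were searched over 250 bases before the start for TTTGAA or TTCGAA and for CCAAT, on both strands and with overlap of the motifs allowed. Both motifs were found in 14 of 60 members (23.3%) and in 5.05% of all 35116 promoters. Members were counted by gene, whereas the 35116 are promoter entries and were not limited to the 8220 genes with a peak. The shares come from unlike sets, so the difference between them cannot be put down to the members' role. By class both motifs were in 6 of 15 heat-only, 8 of 41 shared and 0 of 4 control-only members. The heat-only members with both were CCNB2, CDK1, CDK19, KIF23, KIF5B and PLK1. The shared members with both were CCNF, CENPA, CENPC, KIF11, KIF18A, KIF4A, MKI67 and TOP2A. CDK19 is a Mediator kinase and KIF5B is among the other kinesins, whereas KIF11, KIF18A and KIF4A are mitotic kinesins in both lists. The pair of motifs therefore marks off neither the heat-only genes nor the heat-only genes of mitosis alone. The stretches below, from the RefSeq table, are shown for 4 heat-only genes of mitosis and 2 shared proliferation genes, with both motifs in capitals, 5′ to 3′ along the gene. They lie at chr15:59105086-59105128 (plus strand) for CCNB2, chr10:60778164-60778191 (plus) for CDK1, chr16:23678810-23678871 (plus) for PLK1, chr15:69414279-69414305 (plus) for KIF23, chr10:128126437-128126458 (minus) for MKI67 and chr17:40418036-40418062 (minus) for TOP2A.
CCNB2: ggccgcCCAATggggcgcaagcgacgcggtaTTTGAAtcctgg
CDK1: aataaaTTTGAActgtgCCAATgctggg
PLK1: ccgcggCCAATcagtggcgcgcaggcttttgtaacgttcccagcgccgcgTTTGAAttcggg
KIF23: gcgctgATTGGcccgTTTGAAatgcgc
MKI67: ttttcgTTTGAATTGGgcgggc
TOP2A: aacctgATTGGtttaTTCAAAcaaacc

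ATTGG and TTCAAA are CCAAT and TTTGAA on the other strand. In MKI67 the 2 motifs share a base, and in PLK1 they stand farthest apart of the 6. For each promoter only the element and CCAAT box closest to each other are marked, and any other copy in the 250 bases is not shown. Relative to the start, the marked element begins at -29 in CCNB2, PLK1 and MKI67, -55 in KIF23, -151 in TOP2A and -161 in CDK1. In CDK1 and MKI67 it comes before the CCAAT box, and in the others after it. Whether any of these stretches acts as a promoter element was not tested.

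Among the 12 genes with a CENP symbol, 8 had peaks in both lists, 2 in heat only and 2 in control only. CENPO, of the inner kinetochore, was heat only with a region of 3023 bases on chromosome 2, 25042223 to 25045245 (32.2-fold, score 163), and a second of 12.4-fold and score 64.8. CENPP, of the same complex, was heat only by its symbol, but its 1 region, chromosome 9, 95375301 to 95376815 (23.8-fold, score 53.9), overlapped a control region of 123-fold assigned to IPPK, 95375466 to 95378339. The files give no strand, so reads of CENPP and IPPK cannot be told apart there, and by region 14 members were heat only. The control-only genes were CENPI (37.5-fold, score 469) and CENPH (30.3-fold, score 57.1), both of the inner kinetochore. CENPB, which binds alpha-satellite DNA, had a single region of 2840 bases at the ceiling score in both lists, 69.1-fold in heat and 73.7-fold in control. CENPL had the highest fold of the cell cycle genes in either list at 1 region of 543 bases, 208.6-fold in heat and 543-fold in control, and a second control region of 70.2-fold and score 487 without an overlap in heat. CENPC, which holds the kinetochore to CENPA chromatin, had an overlapping region in each list, with scores of 188 in heat and 394 in control. CENPBD1 and CENPV each had 1 region with the same limits, with scores of 549.9 in heat and 3100 in control for CENPBD1, and of 54.5 in heat and 172 in control for CENPV. CENPJ, a centrosome protein, had 1 heat region that overlapped 1 of its 2 control regions. CENPF, a large kinetochore protein, had 7 heat and 6 control regions, of which 6 overlapped. Its region of 2844 bases at chromosome 1, 214817900 to 214820743, had 61.9-fold and a score of 3208 in control, above the 3100 at which most of the highest scores stand, whereas in heat the same limits had 12.4-fold and score 548.

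Of the 10 mitotic kinesins with a peak, 7 were in both lists, 2 in heat only and 1 in control only. Of the 7 mitotic kinesins in both lists, 3 had fewer in heat, 1 had more and 3 had equal numbers, where 20.6% of all genes in both lists had fewer and 25% more. KIF11 (Eg5), which pushes spindle poles apart, had 1 heat and 3 control regions, and its shared region had 77.5-fold and score 274 in heat and 44.7-fold and score 92.7 in control. KIF20B, a motor of cytokinesis, had 2 heat and 4 control regions; its main region of 1231 bases had 15.4-fold and score 75.1 in heat and 87.2-fold and score 771 in control. KIF18B, which depolymerises microtubule plus ends, had 3 heat and 4 control regions. The control region without an overlap, chromosome 17, 43005394 to 43005946, had the highest score of the members' 27 single-list control peaks (1144, 30.6-fold), and the heat list left 1 number for an unlisted peak there. KIF18A, which dampens chromosome movements at the metaphase plate, had 1 region with the same limits, of 22.9-fold and score 62.5 in heat and 138-fold and score 574 in control. KIF20A, a motor of cytokinesis, and KIF2A, a microtubule depolymerase, had 1 overlapping region each in both lists. KIF4A, a chromokinesin, had 5 heat and 3 control regions, and the best-scored region differed between the lists. The best in heat had 42.3-fold and score 253, and the control region that overlapped it 14.0-fold and score 59.7. The best in control had 59.7-fold and score 182, and the same limits in heat 16.6-fold and score 92.4. KIF23, which builds the midbody, and KIF2C (MCAK), which corrects kinetochore attachments, were heat only at 19.4-fold and score 56.8 and at 29.2-fold and score 118. KIF14, a motor of cytokinesis, was control only with 2 regions, the stronger at chromosome 1, 200586740 to 200587966, of 105-fold and score 612.

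**Figure D2:**
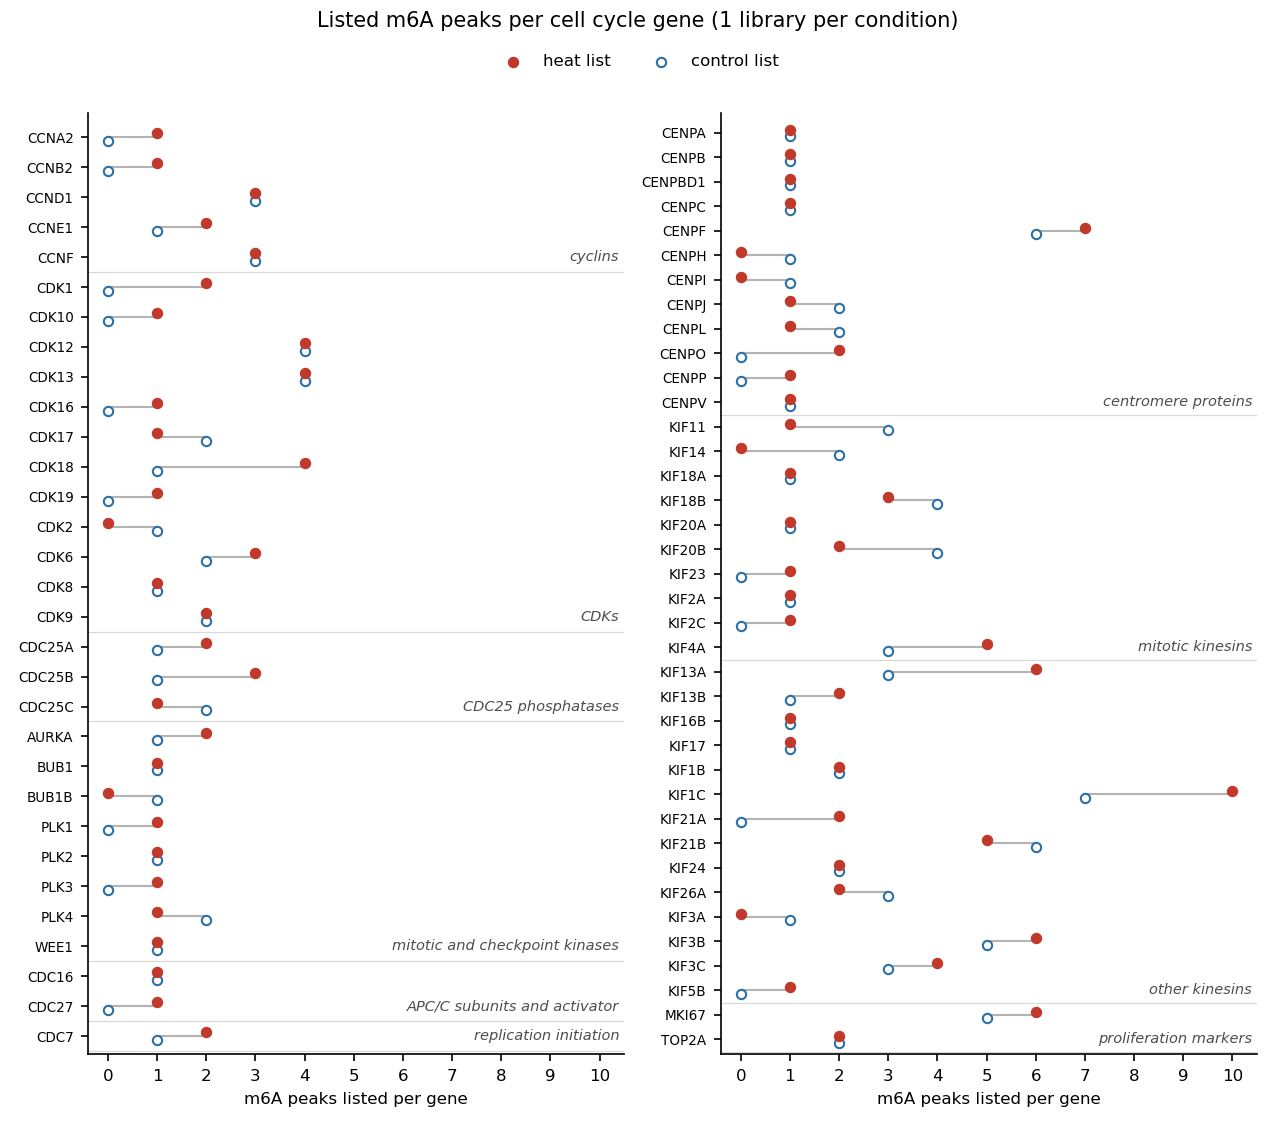
Number of m6A peaks listed per gene (x axis) in the heat list (filled red) and the control list (open blue) for the 69 genes, grouped by role. KIF1C has the most, 10 in heat and 7 in control, and most genes lie at 0 to 3 in both lists.

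Of the 11 other kinesins in both lists, 5 had more peaks in heat, 2 had fewer and 4 had equal numbers, where 25% of all genes in both lists had more and 20.6% fewer; with so few genes these counts set neither group apart. KIF1C, a fast motor for vesicles and mRNA, had 10 heat and 7 control regions along chromosome 17, and all 7 control regions overlapped a heat region. Of its 3 regions found only in heat, 1 was strong: 4925387 to 4926004 had 60.0-fold and the ceiling score, in the top 3.09% of heat peaks, and the control numbering has no gap there. It was the highest-scored of the 47 single-list heat peaks of the cell cycle genes. The regions on either side of it reached the ceiling in both lists, the upstream one with 52.2-fold in heat and 64.6-fold in control, and the downstream one with 53.3-fold in heat and 47.7-fold in control. KIF13A, a transport motor of endosomes, had 6 heat and 3 control regions, the extra 3 with scores of 55.1 to 129. Its control region of 1254 bases had 509-fold and the ceiling score, and the overlapping heat region had 38.0-fold and score 878. KIF5B, the ubiquitous conventional kinesin heavy chain, was heat only with 1 region of 596 bases on chromosome 10, 32344776 to 32345371. That region had 199.8-fold enrichment and a score of 879.5, and KIF5B was the heat-only member that held its class under all 4 filters on peaks. KIF21A, a kinesin that restrains microtubule growth, was heat only with 2 regions, of 29.1-fold and score 60.3 and of 27.3-fold and score 61.4. KIF3A, a subunit of the ciliary motor kinesin-2, was control only with 22.3-fold and score 55.4. Its partner KIF3B had 6 heat and 5 control regions, and KIF3C had 4 and 3. KIF21B, which had 5 heat and 6 control regions, and KIF26A, which had 2 and 3, were the other kinesins with fewer in heat. KIF13B had 2 heat regions and 1 control region, and KIF1B, KIF24, KIF16B and KIF17 had equal numbers. The KIF16B region of 1359 bases had 73.1-fold and score 754 in heat and 15.6-fold and score 201 in control.

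**Figure D3:**
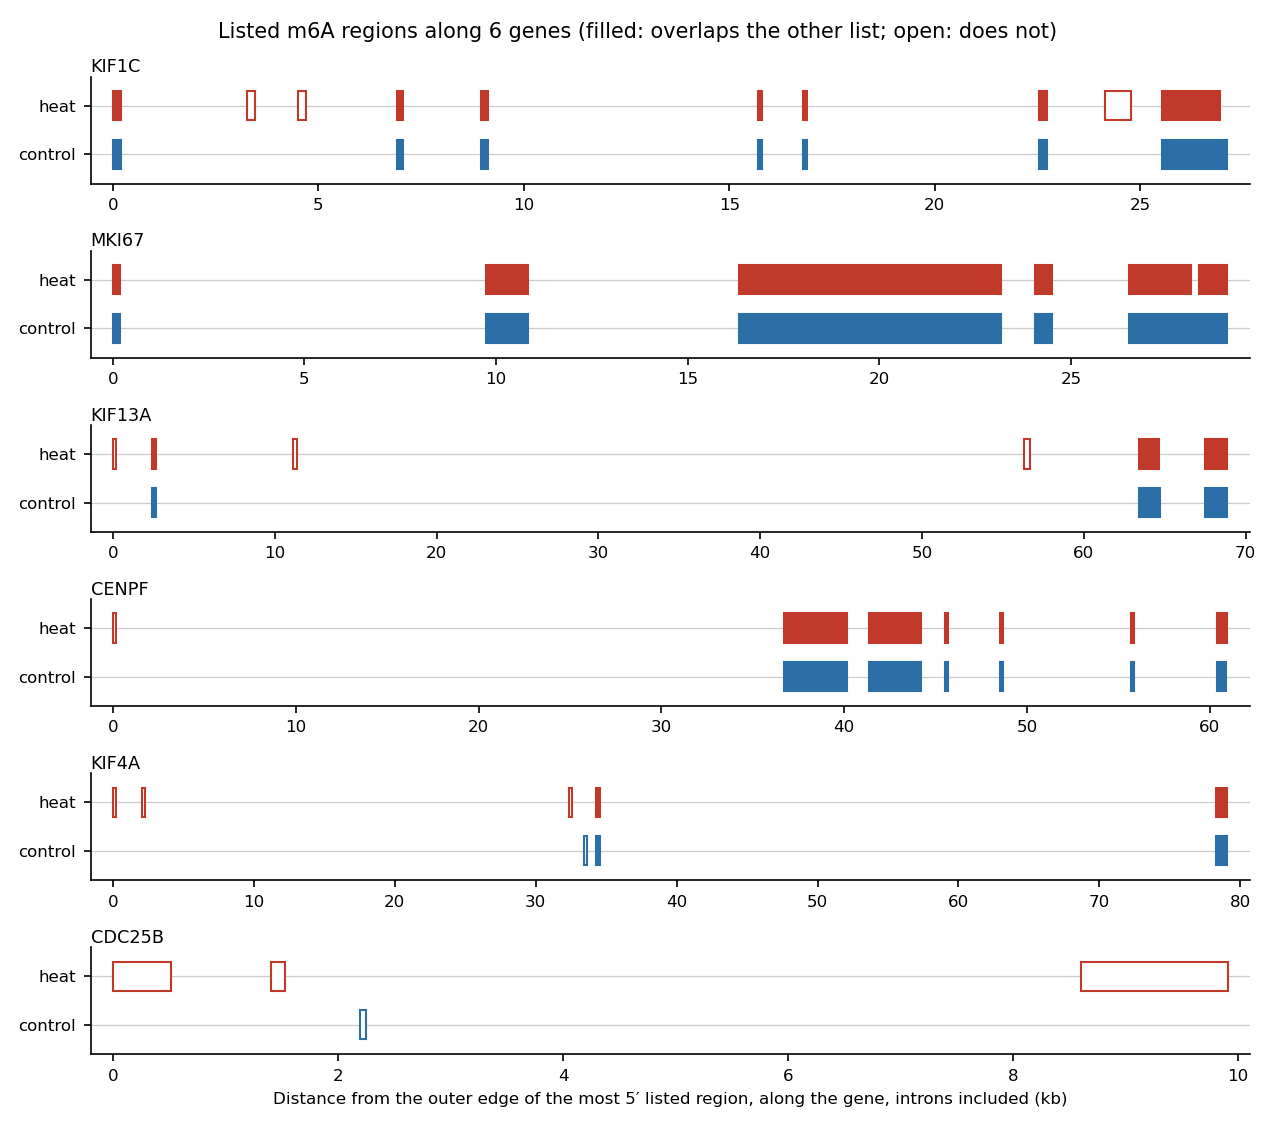
Regions listed in heat (upper row, red) and control (lower row, blue) along 6 genes, by distance in kb from the most 5′ listed region with introns included; filled regions overlap the other list, open ones do not, and very short regions are widened to be seen. KIF1C shows 3 open heat regions among 7 overlapping ones, and in CDC25B no region overlaps.

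Both proliferation markers had peaks in both lists, and the best-scored MKI67 peak stood above the best-scored TOP2A peak within each list. MKI67, the Ki-67 antigen that coats mitotic chromosomes, had 6 heat and 5 control regions. A region of 6845 bases on chromosome 10, 129900843 to 129907687, reached the ceiling score in both lists, with 31.1-fold in heat and 37.9-fold in control. The extra heat region came from a division: the control region of 2557 bases at 129894963 to 129897519 overlapped 2 heat regions, of 1626 bases (116-fold, ceiling score) and 730 bases (25.4-fold, score 50.6). A further MKI67 region of 1080 bases, with the same limits, had 88.4-fold and score 1694 in heat and 26.2-fold and score 86.4 in control. TOP2A, the topoisomerase that untangles chromosomes, had the same 2 regions in both lists, the stronger in heat with 100.7-fold and score 877, against 19.4-fold and score 208 in control.

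Peak numbers could be compared in the 48 shared members. There, 15 had more peaks in heat (31.3%, where 25% of all genes in both lists did), 10 had fewer (20.8%, where 20.6% did) and 23 had equal numbers. At least 2 more in heat were found for CDC25B, CDK18, KIF4A, KIF13A and KIF1C (5 of 48, where 9.45% of genes did) and at least 2 fewer for KIF11 and KIF20B (2 of 48, where 4.68% did). These shares are near those of all genes. Above a fold of 36.5 the direction turned, with 3 members having more and 9 fewer in heat, as it did over all genes, of which 467 had more and 922 fewer.

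By region, 90 of the members' 137 heat peaks met a control peak by at least 1 base (65.7%, Wilson 95% interval 57.4 to 73.1%) and 47 did not (34.3%, where 33.3% of all heat peaks did not). Of their 115 control peaks, 88 met a heat peak (76.5%, 68.0 to 83.3%) and 27 did not (23.5%, where 28.3% of all control peaks did not). Both intervals are for the counting of peaks only and treat peaks of the same gene as independent. In 65 cases the limits were the same in both lists. These made up 47.4% of the members' heat peaks, where 43.8% of all heat peaks had the same limits. In control they made up 56.5%, where 47.2% of all control peaks did. All regions had the same limits in 14 genes, CCND1, CCNF, CDK9, CENPB, PLK2 and TOP2A among them. The share of all genes for which this held was not counted. The members' regions in 1 list had a median score of 99.5 in heat, where their overlapping ones had 389, and of 63.2 in control, where their overlapping ones had 320. The same held for all peaks, with medians of 104 for those in 1 list and 324 for the overlapping ones in heat, and of 106 and 443 in control. Of the 15 heat-only genes, 12 had 1 peak (80%, where 77.3% of all heat-only genes had 1), and only KIF5B, CDK16 and PLK1 had a best score above the median of the heat list (20%, where 29.7% of all heat-only genes did). Of the 6 control-only genes, KIF14 and CENPI did so in the control list (33.3%, where 27.5% of all control-only genes did).

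**Figure D4:**
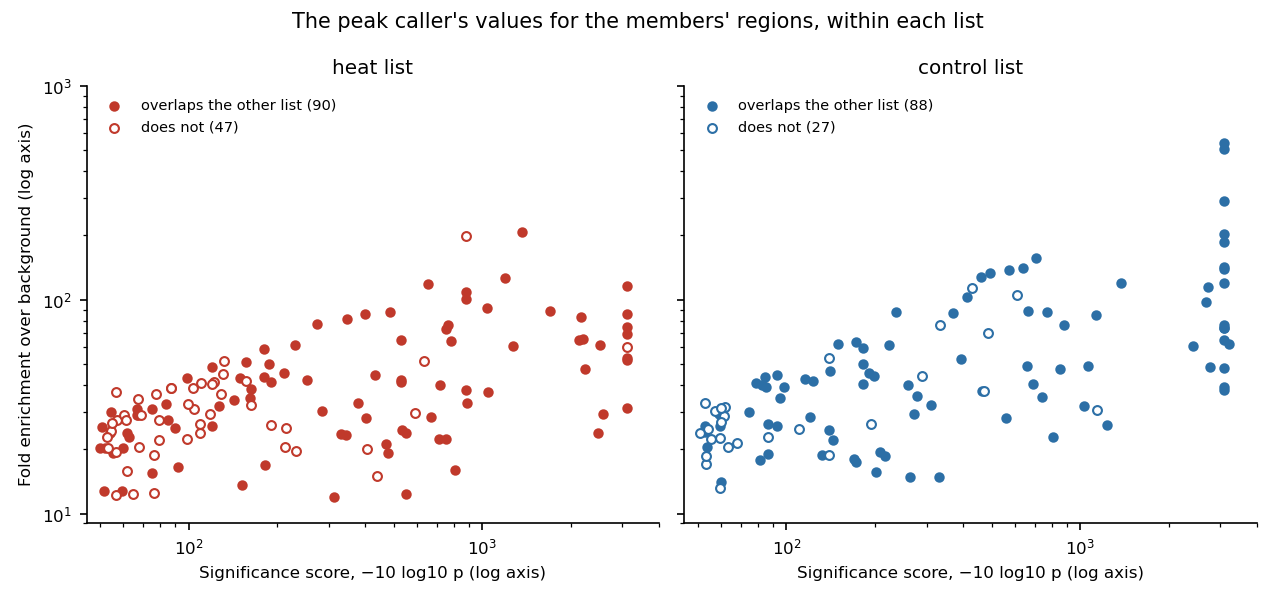
Fold enrichment against significance score for the members' 137 heat regions (left) and 115 control regions (right), both axes logarithmic; filled points overlap a region of the other list, open points do not. Open points gather at low scores, with KIF1C at the ceiling of 3100 and KIF5B at 199.8-fold as exceptions in heat.

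The place of the strongest peak along the gene was also read, after other values had been seen. Among genes with at least 2 peaks and a known strand, the best-scored one was the most 3′ in 7 of 24 members in control (29.2%, Wilson interval 14.9 to 49.2%) and in 57.0% of all such genes. In heat it was the most 3′ in 12 of 26 members (46.2%, 28.8 to 64.5%) and in 54.4% of all such genes. These intervals are for the counting of genes only. The order counts listed peaks only, and a position relative to the stop codon was not analysed here. KIF3B, KIF3C and CDK12 are examples of members whose best peak was the most 5′ in both lists, and CCNF, CDK9 and KIF24 of members where it was the most 3′ in both.

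Partners of these genes, taken from a list of cell cycle regulators outside the rule, fell in all 3 classes. Of 62 partners with a peak, 40 were in both lists, 14 in heat only (22.6%, where 13.2% of all genes were) and 8 in control only (12.9%, where 13.5% of all genes were). The single lists below hold 6 to 14 genes each and are given as counts. Of the CDK inhibitors and adaptors, CDKN2A, the p16 and p14ARF locus, was heat only with 3 peaks (best 14.8-fold, score 488), as were CDKN2D (28.1-fold) and CDKN3 (27.6-fold), and none was control only. The spindle and cytokinesis list had 4 heat-only genes, CEP55, an abscission protein with 4 peaks (best 54.8-fold, score 444), NUSAP1, and the kinesin light chains KLC1 and KLC4, and no control-only gene. The APC/C and ligase list had no heat-only gene, with ANAPC1, ANAPC13 (154.6-fold, score 1001) and the ubiquitin-conjugating enzyme UBE2S (24.6-fold, score 666) in control only, and 8 genes in both. In the RB and E2F list RBL2 and TFDP2 were heat only, and E2F1 and E2F8 control only. In the checkpoint and passenger list the kinetochore proteins CASC5 (50.2-fold) and NDC80 (22.0-fold) were heat only, and SGOL2 (152-fold) and ZW10 (46.3-fold) control only. In the cohesin and condensin list NCAPD3, SMC4 and the securin gene PTTG1 were heat only, and PDS5A control only. Input RNA levels were not analysed here, so a difference in m6A and a difference in RNA amount cannot be told apart for any of these genes.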

How the data were processed

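m6A MeRIP-seq of CaSki cells was analysed from 1 peak list per condition. The submitters' processing notes name cutadapt 1.9.3, STAR (no version) and the hg19 build. Peak names begin with MACS, whose settings no source states. Per the file headers, each deposited peak has a score for significance, equal to 10 times the negative log10 of p, a fold enrichment (a ratio) and a false discovery rate in percent. The lists hold 23.9% (heat) and 24.6% (control) of the peak numbers, and 1 line of the heat list was emptied for this work. Starts were made 1-based.

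Peaks were ranked by score, ties by fold. Regions were shared when they overlapped by at least 1 base. Functions were tested on simulated data. Python 3.11.15, pandas 2.3.3 and statsmodels 0.14.6 were used. All 69 members matched a RefSeq gene identifier, and 60 had a strand there. No test was possible with 1 library per condition.

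Members and gene lists were chosen with earlier results of these data known. Values of at least the best peak are given for single-list members, members whose peak numbers differ by 2 or more, members without an overlapping region and the 2 shared members of each role with the lowest sum of ranks; some others were added after their values were seen, as was the analysis of peak order and promoters.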

Additional observations from a re-analysis of the deposited data

How the results depend on the processing

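The counts of 15 heat-only and 6 control-only members moved with the peaks kept: control-only members numbered 11 above a fold of 36.5 and 10 above a score of 228. Members with more peaks in heat numbered 3 of 27 shared ones above that fold, 6 of 23 above that score and 6 of 23 at a listed false discovery rate under 100%. Members with fewer peaks in heat numbered 3 under each of the filters on score and false discovery rate. Of all 3725 genes in both lists above that score, 567 had more and 641 fewer. Of all 3695 at a listed false discovery rate under 100%, 604 had more and 582 fewer. The share of control peaks overlapping a heat peak moved to 56.3% above that fold. The filters on fold and score were set at the median of both lists pooled, and all of them leave fewer genes. Of the members, 19 of 48 in both lists, 1 of 15 heat only (KIF5B) and 2 of 6 control only (KIF14 and CENPI) had the same class under all 4 filters. The share of all genes that kept their class is not given here, so these counts set the members apart in no way. Requiring an overlap of 50% of both regions gave shares of 64.2% in heat and 76.5% in control, and requiring no overlap with a region of any gene, an alternative chosen after seeing the data, gave 14 and 6. No paired analysis was possible because each condition had 1 immunoprecipitated library.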
